A study of Mus musculus with 3 samples.

Results

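Small RNAs that come from the mitochondrial genome were examined in 3 libraries of the CD1 mouse, an outbred strain: mature sperm, whole testis and whole uterus. The members are the 37 mitochondrial genes of GENCODE M21, of 55450 genes in that annotation: 22 tRNA genes, 2 rRNA genes and 13 mRNA genes. A read was counted for a gene if its whole sequence matched the gene in sense without a substitution, and antisense matches were counted apart. No mitochondrial read matched a nuclear tRNA, but only 13 of 408 nuclear tRNA genes could be checked by sequence. Sperm were mature cells released from the cauda epididymis and treated with a detergent buffer that lyses somatic cells. Testis and uterus were adult tissues, and total RNA was the starting material throughout. Genetic changes are not named in the labels, and how many animals were used or pooled is not stated in the sources at hand. A group is a single library, so a difference between groups carries no replicate error, no test between groups was made, and every interval is a 95% interval for counting error only. PCR copies are not independent molecules, and no molecular identifiers are described in the sources used here.

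Mitochondria carry a small circular genome that is transcribed from both strands into long precursors. Most rRNA and mRNA genes are bordered by tRNA genes, and the precursors are cut at the ends of these tRNAs, which sets the rRNAs and mRNAs free. A CCA tail, which mitochondrial DNA does not encode, is then added to the tRNAs, and several of their bases are methylated. In sperm the mitochondria are wound around the midpiece of the tail.

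The sequences that carry most of the findings are shown here, 5′ to 3′ as DNA letters. Each tRNA line is the whole gene from GENCODE, with the most abundant fragment in capitals; a CCA or CC at its 3′ end is a tail found in the reads. The rRNA lines show the most abundant sequence in capitals and up to 20 bases on each side. All coordinates are those of GRCm38, from a match to GENCODE M21.

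mt-Rnr2, leading sequence of sperm, chrM:2347-2385, plus strand: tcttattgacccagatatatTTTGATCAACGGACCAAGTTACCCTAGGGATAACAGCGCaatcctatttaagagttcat

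mt-Rnr2, leading sequence of testis, chrM:1094-1117, plus strand: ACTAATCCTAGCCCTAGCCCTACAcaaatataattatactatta

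mt-Rnr2, leading sequence of uterus, chrM:1094-1114, plus strand: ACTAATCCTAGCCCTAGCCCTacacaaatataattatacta

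mt-Th, leading tailed fragment of sperm, chrM:11576-11612, plus strand: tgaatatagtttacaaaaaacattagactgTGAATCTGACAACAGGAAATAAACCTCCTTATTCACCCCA

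mt-Tq, leading fragment of sperm, chrM:3804-3842, minus strand: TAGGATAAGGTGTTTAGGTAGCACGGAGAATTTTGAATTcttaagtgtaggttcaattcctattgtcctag

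mt-Ts2, leading fragment of sperm and uterus, chrM:11613-11631, plus strand: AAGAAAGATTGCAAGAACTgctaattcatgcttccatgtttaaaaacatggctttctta

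mt-Ty, leading fragment of testis, chrM:5296-5326, minus strand: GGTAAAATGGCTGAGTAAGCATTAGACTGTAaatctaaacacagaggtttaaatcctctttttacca

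mt-Tg, leading tailed fragment of sperm, chrM:9435-9458, plus strand: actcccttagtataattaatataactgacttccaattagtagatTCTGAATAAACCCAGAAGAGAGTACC

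mt-Tt, leading untailed fragment of sperm, chrM:15289-15315, plus strand: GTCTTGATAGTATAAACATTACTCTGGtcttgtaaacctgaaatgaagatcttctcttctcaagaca

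mt-Tt, leading tailed fragment of sperm, chrM:15318-15355, plus strand: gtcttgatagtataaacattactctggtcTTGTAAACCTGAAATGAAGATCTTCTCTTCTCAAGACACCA

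mt-Tl1, leading fragment of sperm, chrM:2676-2702, plus strand: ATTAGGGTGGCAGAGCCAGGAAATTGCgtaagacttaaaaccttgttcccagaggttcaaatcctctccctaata

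These lines show the main contrasts. The leading mt-Rnr2 sequence lay deep inside the rRNA in sperm and at its first base in testis and uterus. mt-Th gave a 3′ fragment with a CCA tail, while mt-Tq, mt-Ts2 and mt-Ty gave 5′ fragments.

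The first comparison asks how much mitochondrial RNA each library held. The sperm library had 15690722 reads, that of testis 23783785 and that of uterus 15876066, all of 18 to 44 nt. Sense matches to mitochondrial genes came to 127683 reads in sperm, only 771 in testis, and 6013 in uterus. As a share of the library these were 0.814% for sperm (0.809% to 0.818%), 0.00324% for testis (0.00302% to 0.00348%) and 0.0379% for uterus (0.0369% to 0.0388%). In reads per 1000000 library reads (RPM) the sperm level was 251 times that of testis (234 to 270) and 21.5 times that of uterus (20.9 to 22.1). Testis held 0.0856 times the level of uterus. All 37 genes had a sense read in sperm, 26 had one in testis and 32 had one in uterus. In bulk libraries such as these, fewer cells of a type and less RNA per cell cannot be told apart.

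The libraries differed in the lengths of RNA they held, which bears on every comparison. Reads of 18 to 28 nt were 18.7% of the sperm library, 20.2% of the testis library and 99.6% of the uterus library. Among reads of 18 to 28 nt alone, mitochondrial reads were 0.712% in sperm, against 0.00684% in testis and 0.0376% in uterus. The ratio of sperm to testis was then 104 and the ratio of sperm to uterus 18.9, so the order of the libraries was the same in this window. In the narrower window of 18 to 23 nt, chosen after the data were seen, testis stood above uterus, at 0.0487% against 0.0272%, a ratio of 1.79 (1.52 to 2.08), and sperm was highest at 0.544%. Scaling by TMM factors of edgeR, computed over 5902 genes, gave 232 for sperm over testis and 5.81 for sperm over uterus.

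Other cell types were read from their microRNA hairpins, since these libraries hold small RNA. The 4 epithelial hairpins of the miR-200 group summed to 2485 RPM in sperm, with 0.799 in testis and 366 in uterus. In sperm most of this was Mir200c, at 2205, with 0.126 in testis and 66.5 in uterus. Of the 4 only Mir200a was higher in uterus than in sperm, at 214 against 66.8. The 4 smooth muscle hairpins summed to 1326 in sperm, against 142 in testis and 47907 in uterus. Mir143 was 1177 of the sum in sperm, while Mir1a-1 was 37735.5 of the sum in uterus. The 5 germ cell hairpins found, of 6 listed, summed to 1287 in sperm, with 3697 in testis and 348 in uterus, and 2 of the 5 were at 0 in uterus. Most of each sum was Mir34c, at 1105, 3524 and 338. Of the 5 only Mir741 stood higher in sperm than in testis, at 79.9 against 11.4. The 3 leukocyte hairpins summed to 33.1, 1.72 and 169, and the endothelial hairpin Mir126a stood at 10.6, 0.252 and 33.1. Of the 3 leukocyte hairpins only Mir150 was higher in sperm than in uterus, at 5.93 against 5.04. The epithelial, smooth muscle and leukocyte sums and Mir126a were thus above testis in sperm, as the mitochondrial reads were. The germ cell sum was below it. The part of these cell types in the mitochondrial result was not tested.

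Gene by gene, the calls used a fold of 4 in RPM and asked for 100 or more reads in whichever library was higher. Of 15 mitochondrial genes with enough reads in sperm or testis, 14 were at least 4-fold higher in sperm, against 36.6% of 5734 annotated genes with enough reads. They were mt-Rnr1, mt-Rnr2, mt-Co1 and 11 tRNA genes. The remaining gene, mt-Ty, was at least 4-fold higher in testis, against 21.6% of annotated genes. Between sperm and uterus, 13 of 14 genes were called higher in sperm, against 49.5% of 4736 annotated genes, and 0 were called higher in uterus, against 5.15%. The gene without a call was mt-Co1. TMM factors were 1.588 for sperm, 1.467 for testis and 0.429 for uterus, which lower the sperm-to-uterus ratio of all genes alike, and with them 9 genes were called higher in sperm, against 23.1% of annotated genes. The ratios of sperm to uterus that lost the call were 2.11 for mt-Rnr1, 3.66 for mt-Ts2, 2.07 for mt-Tm and 3.92 for mt-Tl1. Between testis and uterus, mt-Ty was higher in testis, against 58.7% of 4056 annotated genes, and mt-Rnr1, mt-Rnr2 and mt-Co1 were higher in uterus, against 16.2%.

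The median log2 ratio of sperm over testis was 7.29 for the 15 members and 0.48 for all annotated genes. For sperm over uterus it was 4.93 for 14 members and 1.99 for all genes. For testis over uterus it was -4.26 for 4 members and 2.83 for all genes. A gene enters these medians only through the library where it is high, so they are given as a description.

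**Figure D1:**
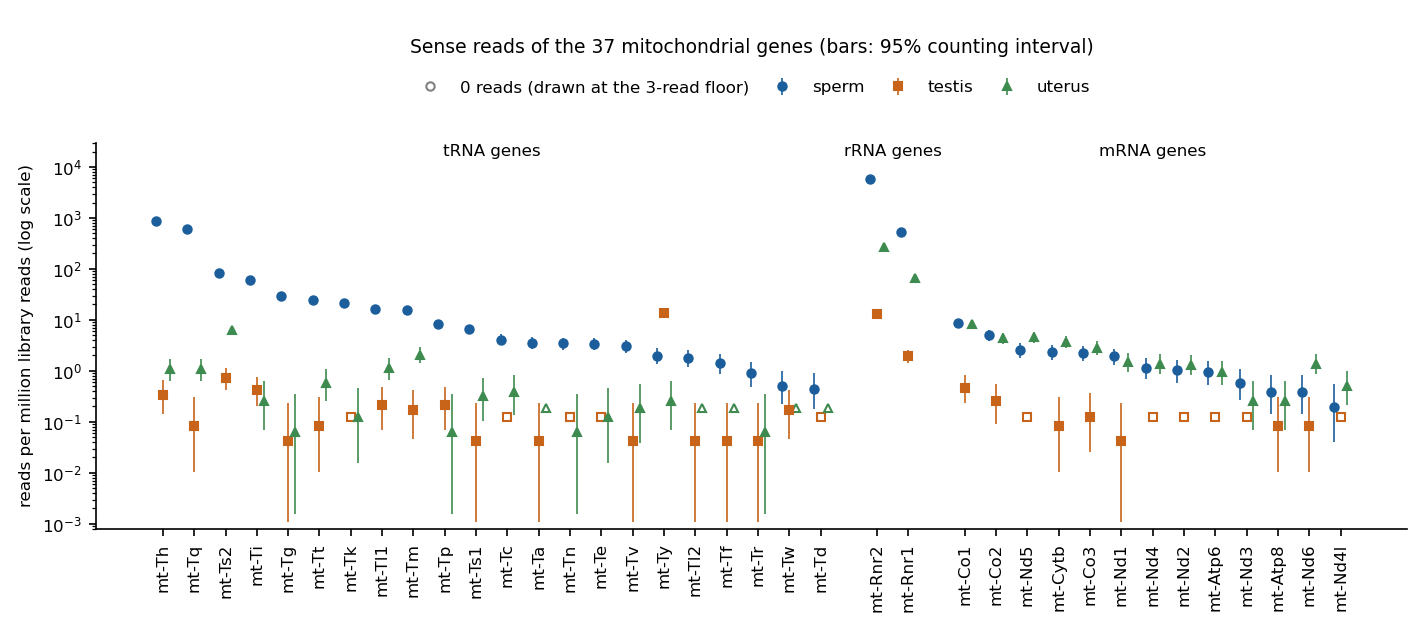
Sense reads in RPM (log axis) for the 37 mitochondrial genes, grouped as tRNA, rRNA and mRNA genes and ordered by their level in sperm; circles are sperm, squares testis and triangles uterus, bars are 95% counting intervals, and open marks are genes with 0 reads drawn at the level of 3 reads. The tRNA and rRNA genes stand highest in sperm except mt-Ty, which is highest in testis, while the mRNA genes of sperm and uterus lie close together.

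The 3 classes of gene differed in how they were split among libraries. In sperm, rRNA genes took 78.0% of mitochondrial sense reads, tRNA genes 21.7% and mRNA genes 0.334%. In testis tRNA genes took 50.5%, rRNA genes 46.0% and mRNA genes 3.50%. In uterus rRNA genes took 88.0%, mRNA genes 8.25% and tRNA genes 3.71%. Per kb of gene, the level in sperm was 2500 RPM per kb for rRNA genes, 1177 for tRNA genes and 2.39 for mRNA genes. On the same scale testis had 5.88, 10.9 and 0.0996, and uterus had 131, 9.36 and 2.74. The rRNA level per kb was thus 1048 times the mRNA level in sperm, 59.1 times in testis and 48.0 times in uterus.

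Sperm stood apart from uterus by class. tRNA reads were 126 times higher in sperm than in uterus (110 to 144) and rRNA reads 19.02 times higher (18.5 to 19.6). mRNA reads were near equal, at 27.2 RPM in sperm and 31.2 in uterus, a ratio of 0.871 (0.764 to 0.993). With TMM factors the mRNA ratio was 0.235, and among reads of 18 to 28 nt it was 2.14, so no direction is given for the mRNA class. tRNA reads were 16.4 RPM in testis and 14.0 in uterus, a ratio of 1.16 (0.985 to 1.38) that became 0.341 with TMM factors.

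Read lengths differed among the libraries too. Over all library reads the commonest length was 32 nt in sperm, 30 nt in testis and 22 nt in uterus. The median length of mitochondrial reads was 36 nt in sperm, 31 nt in testis and 22 nt in uterus. Reads over 34 nt were 57.4% of mitochondrial reads in sperm and 2.59% in testis. Sperm rRNA reads had a median of 37 nt and most often 39 nt, which held 9.28% of them. Testis tRNA reads were nearly of 1 size: 66.8% had 31 nt and 17.99% had 32 nt. In uterus rRNA reads peaked at 21 nt with 17.4% and again at 24 nt with 15.6%, and tRNA reads peaked at 19 nt with 27.8%. In the window of 35 to 44 nt, mitochondrial reads made up 3.78% of all sperm reads of that length, against 0.0365% in testis. That window held only 225 reads in uterus, so that a count of 0 mitochondrial reads there still allows 1.63% of them.

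**Figure D2:**
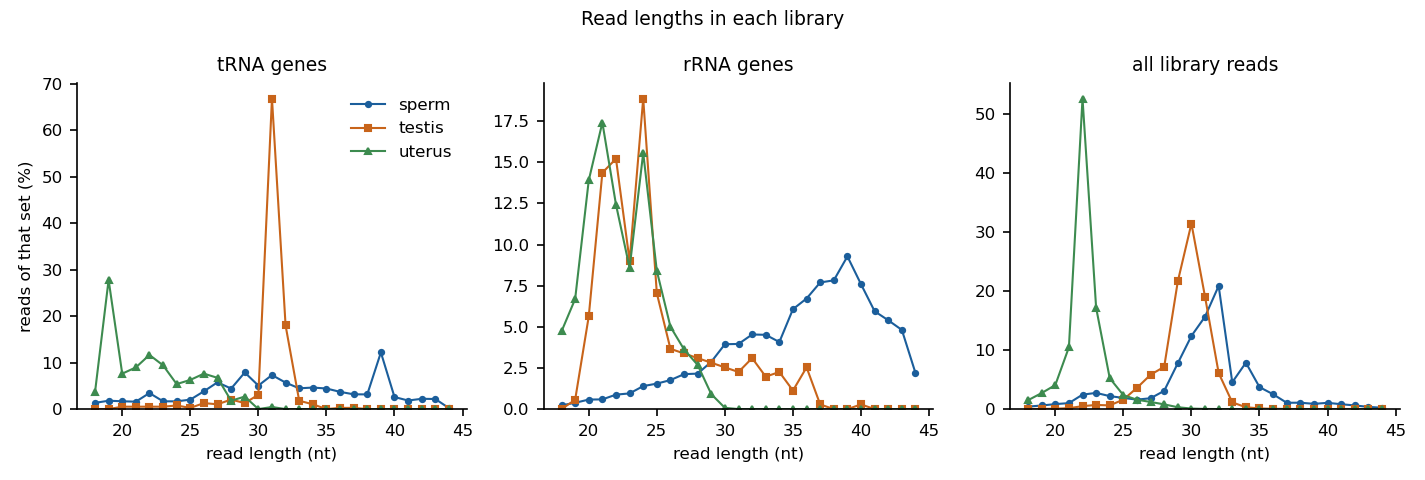
Percent of reads (y axis) at each read length in nt (x axis) for tRNA genes, rRNA genes and the whole library; circles are sperm, squares testis and triangles uterus. Testis tRNA reads form 1 sharp peak at 31 nt, sperm rRNA reads spread up to 44 nt with a peak at 39 nt, and the rRNA reads of testis and uterus share peaks between 21 and 24 nt.

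The large rRNA was the main mitochondrial source in sperm and uterus. mt-Rnr2, the RNA core of the large subunit of the mitochondrial ribosome (chrM:1094-2675, 1582 bases), stood at 5825 RPM in sperm (5787 to 5863), 13.0 in testis (11.6 to 14.5) and 267 in uterus (259 to 275). These were 71.6% of mitochondrial sense reads in sperm and 70.5% in uterus. Its reads came from different places in the gene. In sperm 54.6% of them covered base 1265 (counted from the first base of the rRNA), and the 20 most abundant sequences all overlapped there and shared bases 1254 to 1284. This stretch belongs to the conserved domain of large rRNA that forms part of the peptidyl transferase centre. Testis had 3 reads over that base and uterus 125, which were 0.971% and 2.95% of their mt-Rnr2 reads.

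The other end of the contrast was the first base of mt-Rnr2, which directly follows the last base of the valine tRNA gene mt-Tv on the genome (1093 and 1094). Reads beginning exactly at base 1 were 75.7% of mt-Rnr2 reads in testis (70.6% to 80.4%), 52.8% in uterus (51.3% to 54.4%) and 1.21% in sperm (1.14% to 1.29%). These reads had 20 to 26 nt in 91.5% of cases in testis, 97.4% in uterus and 36.1% in sperm. In RPM they stood at 70.7 in sperm, against 9.84 in testis and 141 in uterus. Sperm over uterus gave 0.501 (0.466 to 0.539). Counted per 1000000 reads of 18 to 28 nt they stood at 159.9 in sperm, against 44.9 and 142, and the ratio of sperm to uterus was 1.13 (1.02 to 1.25), so which of these libraries was higher for this species turned with the lengths counted. For all other mt-Rnr2 reads the ratio of sperm to uterus was 45.7 (43.7 to 47.8) and the ratio of sperm to testis 1825 (1456 to 2320). Both ends of the contrast were present among reads of 18 to 28 nt. There 22.8% of sperm mt-Rnr2 reads covered base 1265, against 0.392% in testis and 2.86% in uterus, and 4.48% began at base 1, against 84.7% and 53.3%.

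mt-Rnr1, the RNA of the small ribosomal subunit (chrM:70-1024, 955 bases), stood at 519 RPM in sperm, with 1.93 in testis and 66.5 in uterus. Counted reads did not pile up at its first base: 102 of 8138 began there in sperm, 2 of 46 in testis and 3 of 1055 in uterus. The gene before it, mt-Tf, ends at base 68 of the genome and mt-Rnr1 begins at base 70. A read that began on the base between them was not counted, so a pile directly after mt-Tf could not be seen. Coverage peaked at base 690 in sperm, with 41.3% of reads, at base 518 in testis with 32.6% and at base 521 in uterus with 27.0%. The peak near base 520 was thus shared by testis and uterus, and bases 521 to 530 were covered by 15.4% of sperm reads too. The leading sequences lay near the other peak in both sperm (bases 672 to 710, 122 reads) and uterus (bases 669 to 692, 13 reads). mt-Rnr2 reads were 6.78 times as frequent per kb as mt-Rnr1 reads in sperm, 4.06 times in testis and 2.43 times in uterus.

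**Figure D3:**
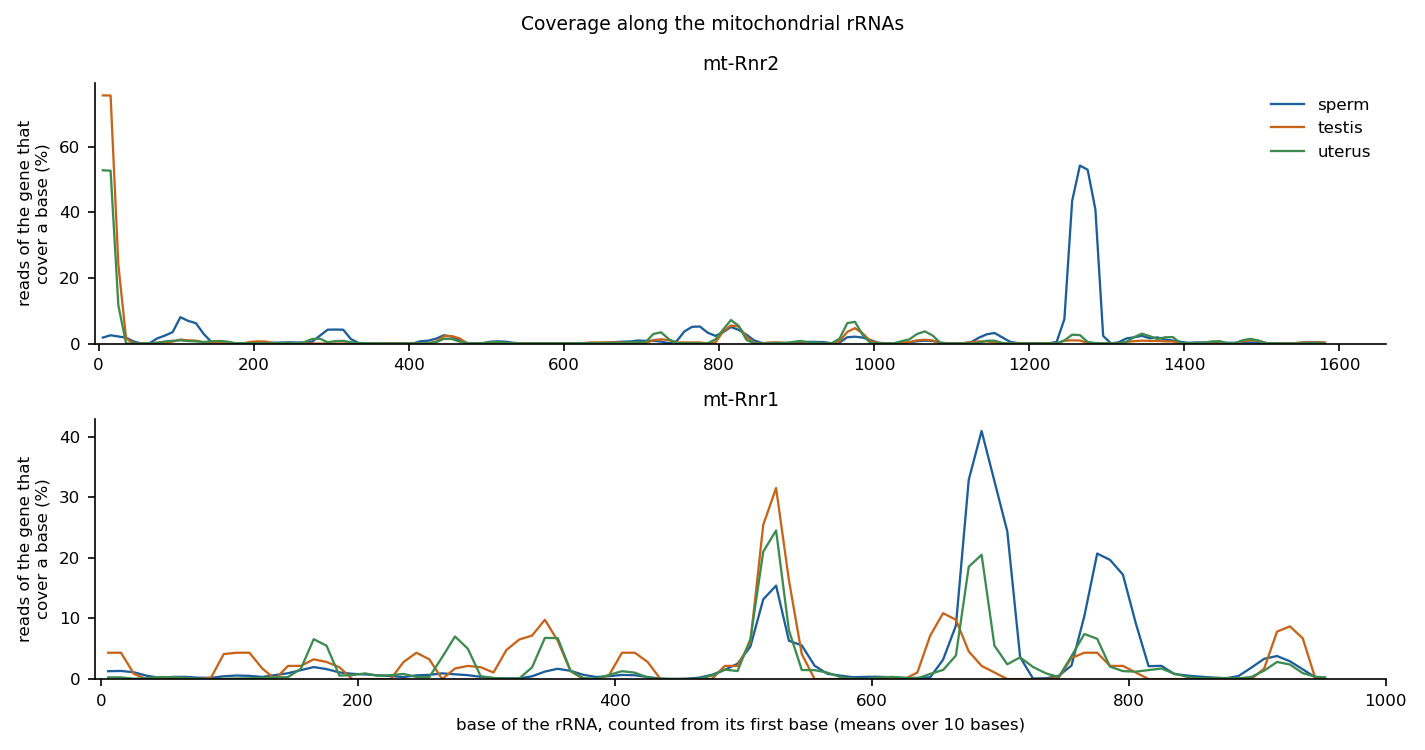
Percent of the gene's reads that cover a base (y axis, means over 10 bases) along mt-Rnr2 and mt-Rnr1 (x axis, bases from the start of each rRNA) in sperm, testis and uterus. In mt-Rnr2 the sperm line has its peak of 54.6% at base 1265, while the testis and uterus lines begin at 75.7% and 52.8% at base 1; in mt-Rnr1 all 3 lines have a peak near base 520 and sperm and uterus another near base 690.

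Among the 22 tRNA genes a few supplied most reads, and the few differed by library. In sperm mt-Th, the histidine tRNA, and mt-Tq, the glutamine tRNA, together gave 83.6% of tRNA reads, while the median gene had 83.5 reads. In testis mt-Ty, the tyrosine tRNA, gave 83.5% of tRNA reads and the median gene had 1 read. In uterus mt-Ts2, the serine tRNA that lacks a D arm, gave 44.4% and the median gene had 2.5 reads. Genes with at least 100 reads numbered 11 in sperm, against 1 in testis and 0 in uterus.

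mt-Th stood at 873 RPM in sperm, with 0.336 in testis and 1.07 in uterus. Most of its RNA ended in a tail and so did not match the gene in full. With tailed reads included, mt-Th had 32493 reads in sperm, against 9 in testis and 23 in uterus. A single 40-nt sequence, shown above, had 15825 reads in sperm, with 1 in testis and 0 in uterus. It begins at base 31, the second base of the anticodon (bases 30 to 32), and runs to the last base of the tRNA with CCA added. Of all mt-Th reads in sperm, 51.7% began at base 31. Reads that began in the first 3 bases were 0.277% of them. The annotated gene begins with TGAATA, while the bases TATTCAC near its 3′ end would pair with GTGAATA. A read with a base before the annotated first base was not counted, so 5′ reads of mt-Th may have been missed.

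The other abundant tRNAs of sperm mostly gave 5′ fragments. mt-Tq had 9460 reads in sperm, against 2 in testis and 17 in uterus. In sperm 99.0% of them began in the first 3 bases, and the leading fragment of bases 1 to 39 held 2551 reads and ran past the anticodon (bases 33 to 35). mt-Ts2 had 1324, 17 and 99 reads, of which 98.0%, 100% and 97.0% were 5′ reads. Its 5′ fragments were thus seen in all 3 libraries, and its first base directly follows the last base of mt-Th on the genome (11612 and 11613). Its leading fragment of 19 nt had 246 reads in sperm, with 0 in testis and 51 in uterus, and in testis the leading one had 28 nt and 4 reads. mt-Ts2 was 118 times higher in sperm than in testis (73.4 to 203) and 13.5 times higher than in uterus (11.03 to 16.8).

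mt-Ty ran against the other tRNAs. It had 31 reads in sperm, against 325 in testis and 4 in uterus, or 1.98, 13.7 and 0.252 RPM. The groups were far apart beyond counting error, with a ratio of sperm to testis of 0.145 (0.0966 to 0.209). All 325 testis reads began at base 1, and 317 of them had 31 or 32 nt. The leading fragment had 254 reads in testis, 1 in sperm and 0 in uterus, and ends at the last base of the anticodon (bases 29 to 31). The testis library is rich in RNA of this size, the size of piRNAs, the germ-cell small RNAs that silence transposons. Within reads of 29 to 34 nt mt-Ty still stood at 17.1 reads per 1000000 of that window in testis and 1.201 in sperm. Among reads of 18 to 28 nt only 1 testis read and 17 sperm reads of mt-Ty were left, and the order turned, with a ratio of sperm to testis of 27.96 (4.38 to 1168). The higher testis level of mt-Ty is therefore that of its 31-nt and 32-nt fragments.

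Further named tRNAs of sperm were mt-Ti, the isoleucine tRNA, with 932 reads against 10 in testis and 4 in uterus, and mt-Tk, the lysine tRNA, with 342 against 0 and 2. mt-Tl1, the leucine tRNA for UUR codons, had 258, 5 and 18 reads, and mt-Tm, the methionine tRNA, had 250, 4 and 33. These 4 leaned to the 5′ end in sperm, with 70.0%, 98.5%, 84.1% and 62.8% of their reads starting in the first 3 bases. mt-Ti had another start at base 10 with 227 reads. In uterus mt-Tm was the second most frequent tRNA, with a leading fragment of bases 1 to 26.

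mt-Tg, the glycine tRNA, gave 3′ fragments, and mt-Tt, the threonine tRNA, gave both kinds. With tails, mt-Tg had 1783 reads in sperm, with 27 in testis and 16 in uterus, and 93.8% of the sperm reads were 3′ reads with scattered starts, most often at base 45 with 232 reads. mt-Tt had 714, 2 and 27 reads with tails. In sperm 42.7% of mt-Tt reads were 5′ reads and 47.2% were 3′ reads, and the leading tailed fragment began at base 30, 1 base before the anticodon.

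Across genes with at least 20 sperm reads, tails included, the 5′ reads were the most frequent kind in 12 of 20 tRNAs, the 3′ reads in 6 and internal reads in 2. The 6 were mt-Tv, mt-Tw, mt-Tg, mt-Th, mt-Te and mt-Tt, and the 2 were mt-Ta and mt-Tn. Of all tRNA reads without a tail, 46.0% began in the first 3 bases in sperm, against 94.1% in testis and 73.5% in uterus. Without mt-Th, whose 5′ reads may have been missed, the sperm value was 90.3%, so the low share in sperm rests on that gene. The other shares rest on single genes too. mt-Tq gave 9362 of the 12666 sperm 5′ reads left without mt-Th. mt-Ty gave 325 of 366 5′ reads in testis, and mt-Ts2 gave 96 of 164 in uterus. No read in any library held a whole tRNA, which is longer than the longest read of 44 nt.

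**Figure D4:**
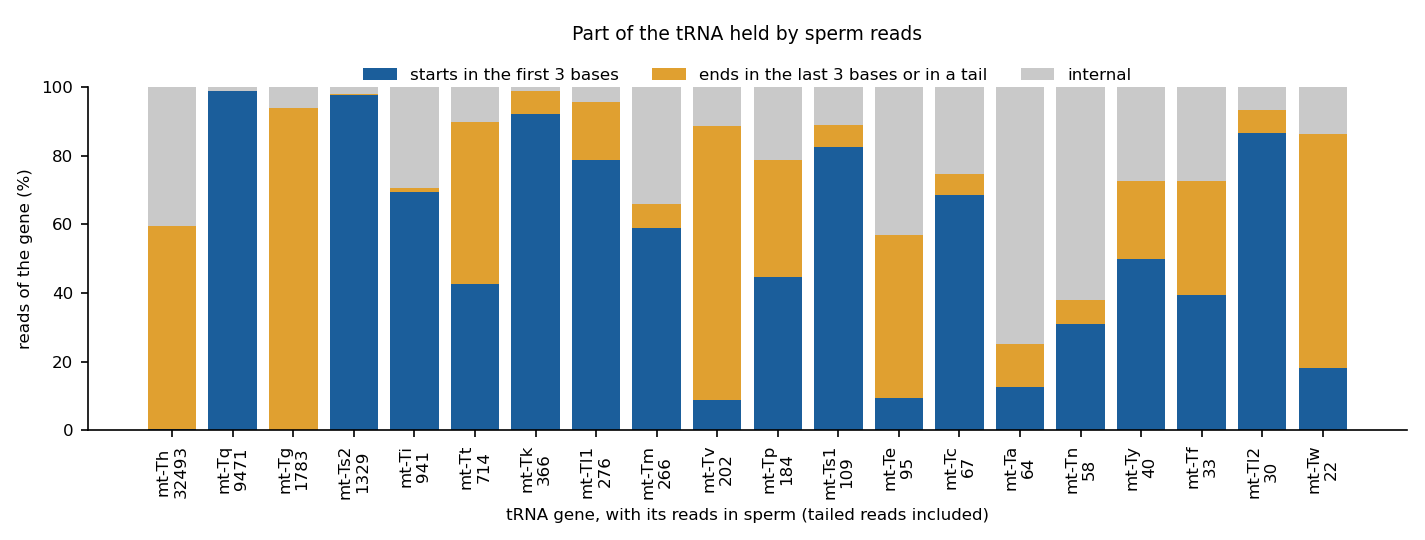
Percent of sperm reads (y axis, tailed reads included) that start in the first 3 bases of the tRNA, end in its last 3 bases or in a tail, or lie inside, for the 20 tRNA genes with at least 20 such reads, ordered by their number, which is printed under each name. mt-Tq and mt-Ts2 are nearly all 5′ reads, mt-Th and mt-Tg mostly 3′ reads, and mt-Ta and mt-Tn mostly internal reads.

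The tails themselves were measured on reads that reached the last base of a tRNA gene. A complete CCA was present on 89.3% of these reads in sperm (21315 reads), 95.7% in testis (46 reads) and 94.5% in uterus (91 reads). The sperm value again followed mt-Th, of whose 18946 such reads 96.0% ended in CCA. Without mt-Th, CCA was on 35.5% of 2369 sperm reads (33.6% to 37.5%) and the shorter CC on 43.7%. In testis and uterus without mt-Th, CCA was on 97.7% of 44 reads and 94.1% of 85 reads. Of these 2369 sperm reads 1588 came from mt-Tg, so the 2 sperm shares mostly show that gene. Tails that lacked the final A were frequent in sperm for some tRNAs and not for others. For mt-Tg 822 sperm reads ended in CC and 395 in CCA, while all 26 testis reads and all 15 uterus reads ended in CCA. The tRNA of proline, mt-Tp, ended in CC on 72.1% of 61 sperm reads, and mt-Tv, the valine tRNA, on 50.9% of 159. mt-Tt, with 80.7% CCA on 336 sperm reads, and mt-Tk, with 79.2% on 24, were closer to mt-Th.

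Reads that differed from a gene by 1 base were counted apart, to see where in the tRNAs the differences lay. They were outside the rule and numbered 32783 in sperm, with 340 in testis and 894 in uterus. In sperm 63.0% of them differed at their last base, and 87.4% of those ended in A. The sites below leave out the 2 bases at each end of a read. Reads over a base are here the exact reads over it plus those changed at that base. Reads with a change elsewhere were left out, so the shares below are of this set and not of all reads. Base 9 of mitochondrial tRNAs is a known site of methylation where it is A or G, and reverse transcriptase often inserts another base there.

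Base 9 is A or G in 19 of the 22 mitochondrial tRNA genes. In sperm 16 of these had at least 20 such reads over it, and another base was read in 6.08% to 95.8% of those reads, with a median of 28.2%. The other 3 genes have C or T at base 9, and there 1 of 1591 sperm reads was changed. The highest shares in sperm were mt-Tg with 95.8% (main change A9G), mt-Te, the glutamate tRNA, with 79.5%, and mt-Tw, the tryptophan tRNA, with 70.0% of 20 reads. mt-Tq with G9T had 6.08%. The same site was changed in testis in 38.7% of 530 mt-Ty reads (G9T, 34.5% to 43.0%), against 33.3% of 36 in sperm (18.6% to 51.0%). In uterus it was changed in 80.0% of 25 mt-Tt reads (59.3% to 93.2%), against 28.1% of 427 in sperm (23.9% to 32.6%). For mt-Tl1 the uterus had 38.1% of 21 reads (18.1% to 61.6%), against 28.2% of 308 in sperm (23.3% to 33.6%). For mt-Tw the testis had 81.8% of 22 reads (59.7% to 94.8%), against 70.0% of 20 in sperm (45.7% to 88.1%). In mt-Th base 8 was changed in 55.3% of 438 sperm reads, as A8G in 120 of them and to T in 116. If this tRNA begins 1 base before the annotated gene, that site is base 9 of the tRNA. The site counted above as base 9 of mt-Th, changed in 6.09% of sperm reads, would then be the base after it.

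**Figure D5:**
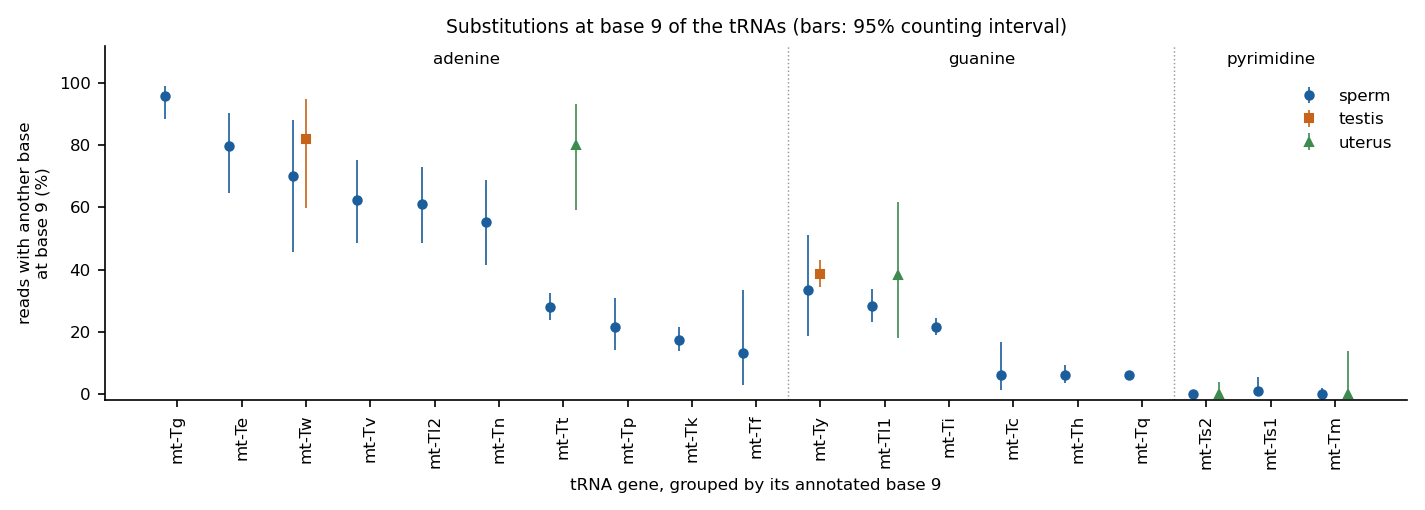
Percent of reads with another base at base 9 of the tRNA (y axis) for the genes with at least 20 reads over it, grouped by whether the annotated base is adenine, guanine or a pyrimidine; circles are sperm, squares testis and triangles uterus, and bars are 95% counting intervals. All tRNAs with a purine there have changed reads, from 6.08% to 95.8% in sperm, and the 3 with a pyrimidine lie between 0 and 1.02%. Reads changed at another base are left out.

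Other sites were changed in single tRNAs. In mt-Tt all 53 sperm reads counted over base 29 were changed there, mainly as C29T, and no exact read was among them. In mt-Ts1, the serine tRNA for UCN codons, 96.3% of 107 were changed, also mainly as C29T. In both genes this base lies 2 before the anticodon, which begins at base 31, and these 2 tRNAs are known to carry 3-methylcytosine in the anticodon loop. mt-Tl1 had G28T in the main, with 89.1% of 274 reads changed at that base, and mt-Tk had G19T in the main, with 73.5% of 1185. The changed bases were of several kinds, as in mt-Tt, where 42 of 53 reads had T, 8 had A and 3 had G. Whether a base of CD1 mitochondrial DNA differs from the annotation at these sites was not tested.

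These changes bear on the counts of exact reads. For mt-Tk 1050 sperm reads had 1 change, against 342 exact reads, and for mt-Tl1 392 against 258. The leading exact fragments of mt-Tt and mt-Tl1 both end at base 27, before the changed bases 29 and 28, and an exact match cannot run across a base that was read differently.

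The mRNA genes, which code for subunits of the respiratory chain and of the ATP synthase, gave few reads. They had 427 reads in sperm, against 27 in testis and 496 in uterus, and the median gene had 18, 1 and 22. mt-Co1 and mt-Co2, subunits of cytochrome c oxidase, led per kb in sperm. mt-Co2 stood at 7.27 RPM per kb in sperm, against 0.369 in testis and 6.35 in uterus. mt-Co1 had 134, 11 and 131 reads, mt-Co3, another subunit of that complex, 35, 3 and 45, and mt-Cytb, the cytochrome b of complex III, 37, 2 and 59. mt-Atp8, a short subunit of the ATP synthase, had 6, 2 and 4 reads. The most abundant sequence of the class held 1.17% of its reads in sperm and 0.806% in uterus. Many of these reads also match a nuclear transcript, namely 47.8% in sperm, against 55.6% in testis and 60.5% in uterus. All reads of mt-Co2 and mt-Co3 did in every library. For mt-Co1, the only mRNA gene with calls above, the shares were 33.6%, 54.5% and 83.2%. The source of the mRNA reads is therefore uncertain. Of tRNA reads 0.0289% had such a match in sperm, 0% in testis and 3.14% in uterus. Of rRNA reads 0.175%, 0.563% and 2.10% did. Only transcripts in sense were searched and not the nuclear genome, so a nuclear copy elsewhere would not have been seen.

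Antisense reads were a smaller share of mitochondrial gene reads in sperm than in uterus. There were 129 for sperm, 8 for testis and 173 for uterus, or 0.101% (0.0843% to 0.120%), 1.03% (0.444% to 2.01%) and 2.80% (2.40% to 3.24%) of all mitochondrial gene reads. mt-Nd5, a subunit of complex I, had 32, 1 and 48 antisense reads, and its most frequent start held 6 of 32 in sperm and 2 of 48 in uterus, and mt-Co3 had 9, 1 and 5. The proline tRNA gene mt-Tp had 43, 2 and 14. These were of 1 kind: 38, 2 and 13 of them began at the same base, which directly follows the last base of mt-Tt on the plus strand (15355 and 15356). Its most abundant sequence in sperm and testis has 36 nt, and the one in uterus, of 27 nt, is its first part:

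mt-Tp, opposite strand, sperm: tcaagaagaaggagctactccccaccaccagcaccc

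mt-Tp, opposite strand, uterus: tcaagaagaaggagctactccccacca

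Nuclear genes of the same function were measured for comparison as full matches to their transcripts. The 47 nuclear-encoded subunits of the respiratory chain summed to 102 RPM in sperm, with 173 in testis and 42.8 in uterus. Without the 3 with most testis reads, Cox6c, Atp5b and Ndufs1, chosen after their values were seen, the other 44 summed to 57.0 RPM in sperm, against 53.6 and 27.8, so the higher testis sum rests on these 3 genes. Of the 8 with 100 reads in sperm or testis, 2 passed the fold of 4 on the sperm side and 1 on the testis side, where 36.6% and 21.6% of all genes did. Cox6c, a subunit of cytochrome c oxidase, stood at 16.8, 63.1 and 1.64 RPM in sperm, testis and uterus, and Atp5b, the catalytic beta subunit of the ATP synthase, at 15.2, 34.9 and 8.31. Ndufs1, a subunit of complex I, stood at 12.9, 21.3 and 5.04. The 18 listed genes of mitochondrial transcription and RNA processing summed to 29.6, 78.2 and 6.61 RPM. Supv3l1, a helicase of mitochondrial RNA decay, stood at 22.6, 70.5 and 1.70, which was most of the sum in sperm and testis. In uterus it was close to Lrpprc, at 1.57. Of these 18 only Supv3l1 had 100 reads in a library.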

How the data were processed

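Small RNA was ligated to adapters, amplified by RT-PCR and sequenced, per the labels' protocols. The deposited files hold, for each library, distinct read sequences with their counts, as the authors made them. Trimming, size selection and filters are not stated in any source at hand, and the submitters' processing notes name mm9, a build not used here. Each sequence of 18 to 44 nt was matched in full, by an exact seed of 18 nt, to GENCODE release 21 mouse transcripts (GRCm38) in sense. Antisense matches were sought for the mitochondrial genes only. In sperm and testis 1 empty line each was left out. Counts were divided by the library total and given as reads per 1000000 (RPM). Shares have exact Clopper-Pearson intervals and ratios conditional exact binomial intervals (95%). The tools were Python 3.11.15, scipy 1.17.1, numpy 2.4.6, numba 0.67.0, pandas 2.3.3, matplotlib 3.10.9, R 4.3.3, edgeR 4.0.16 and DESeq2 1.42.0, the last 2 for scaling factors only. The matching and the counting were tested on simulated data. A count of 0 was set to a floor of 3 reads where a fold was needed. 5′ reads began in the first 3 bases of a tRNA and 3′ reads ended in its last 3 bases or in a tail.

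The members, lists and alternatives were chosen with earlier results of these data known. Values were given by rule for the 8 tRNA genes with most sense reads in sperm and the 3 with most in testis and in uterus, both rRNA genes, the 4 mRNA genes with most reads per kb in sperm and the 2 with most in each tissue, the 3 genes with most antisense reads in sperm, and the 3 genes of each nuclear list with most reads in each library. Other tRNAs named for their tails or substitutions were chosen after their values were seen, and not every nuclear gene of the rule is printed.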

Additional observations from a re-analysis of the deposited data

Results flagged for a closer look

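Signal outside the counted reads was present in 2 kinds of sequence, both above the floor of 3 reads. tRNA reads that ran into a C, CC or CCA tail, and so did not match the gene in full, numbered 20848 for sperm, 45 for testis and 90 for uterus. Of the sperm reads 18792 belonged to mt-Th. Reads across the boundary of adjacent mitochondrial genes, on either strand and not split by gene pair, numbered 26 for sperm and 11 for uterus. In testis there were 0 such reads.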

How the results depend on the processing

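No paired analysis was possible because each group has 1 library, and for the same reason no library could be left out. The order sperm, uterus, testis of the mitochondrial share was the same in the alternatives below except among reads of 18 to 23 nt, where it was 0.544%, 0.0487% and 0.0272% in the order sperm, testis, uterus. Other values follow in that order of libraries. The share of library reads was 1.02%, 0.00467% and 0.0435% with 1 substitution allowed, and 0.795%, 0.00829% and 0.418% of distinct sequences. It was 0.836%, 0.00265% and 0.0290% without sequences of 1 read. Among reads of 18 to 28 nt it was 0.712% in sperm and 0.00684% in testis. With a CCA tail added it was 0.947% in sperm, and without reads that match a nuclear transcript 0.0352% in uterus. The tRNA share was 13.1% of distinct sequences in sperm and 27.0% in testis, and 38.9% and 8.81% among reads of 18 to 28 nt. With the tail it was 32.7% in sperm and 5.13% in uterus. The 5′ share was 26.3%, 84.3% and 52.4% with the tail and 21.4%, 60.3% and 40.9% of distinct sequences. Among reads of 18 to 28 nt it was 52.2% in sperm and 69.0% in testis, and counting base 1 only it was 45.3% in sperm. The antisense share of distinct sequences was 0.776%, 3.59% and 6.70%.

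The ratio of sperm to testis was 232 with TMM factors, 166 with DESeq2 size factors, 104 among reads of 18 to 28 nt and 219 with 1 substitution. That of sperm to uterus was 5.81, 5.66, 18.9 and 23.5 in the same order, and that of testis to uterus 0.0251, 0.0341, 0.182 and 0.107. Among reads of 18 to 23 nt these ratios were 11.2, 19.98 and 1.79, the last one turned. Genes called higher in sperm than testis were 30 with a minimum of 10 reads and 33 with none, where 7000 of 17511 genes in all (minimum of 10) and 25.8% (none) were so called. Those called higher in sperm than uterus were 22 in both cases (44.4% and 24.6% of all genes), and those higher in uterus than testis were 16 and 19 (19.5% and 13.6%). mt-Ty, the 1 gene higher in testis than sperm, left 0 calls at 8-fold and 0 among reads of 18 to 28 nt. In that window its ratio of sperm to testis was 27.96, and of testis to uterus 0.821 with 0 calls. Of 152 alternatives for ratios of single genes and classes, 70 stayed within the counting interval, 82 moved beyond it, and 9 crossed 1. Beside these 2 of mt-Ty they were sperm over uterus for the mRNA class (0.871, and 2.14 among reads of 18 to 28 nt) and for mt-Co1 (1.03, with 0.280 by TMM, 0.273 by DESeq2 and 0.991 with 1 substitution), and testis over uterus for the tRNA class (1.16, with 0.341 by TMM, 0.463 by DESeq2 and 0.441 among reads of 18 to 28 nt). The window of 18 to 28 nt for the mt-Rnr2 positions and that of 18 to 23 nt were chosen after seeing the data. The cause of these changes was not tested. The 771 mitochondrial reads of testis limit the precision of its values.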
